A study of Gallus gallus with 54 samples.

Results

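Breast muscle was set against spleen in 36 of the 54 messenger RNA libraries of a series on indigenous Ethiopian chickens (Gallus gallus): the 18 libraries whose titles carry the word meat, labelled breast muscle, and the 18 whose titles carry the word spleen. Each tissue held 9 libraries of a high altitude breed, labelled as not adapted to heat, and 9 of a low altitude breed, labelled as adapted to heat. Altitude, breed and heat label thus coincide and cannot be told apart, and altitude below stands for them all. The other 18 libraries were heart and served only to give the level of a gene in a further tissue. The labels number each breed's libraries 1 to 9 (with H for high, L for low) in every tissue without saying that a number is one bird. They give no age, sex or batch and do not say whether libraries came from separate birds, so p-values measure the spread between libraries, part of which may be technical.

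The breast muscle of a chicken is a fast skeletal muscle used for short flight, built almost entirely of fibres that burn glycogen without much oxygen. Such fibres devote much of their messenger RNA to a small set of very abundant transcripts for the contractile apparatus, calcium handling and glycolysis. The spleen is a lymphoid organ that holds B and T lymphocytes, macrophages and other blood cells, and avian red cells and thrombocytes keep their nuclei. The files identify genes by Ensembl number alone, and of these 24881 identifiers 0 matched the 25635 genes of the reference table given (assembly GRCg7b). Contractile, glycolytic, lymphocyte and other marker genes could therefore not be picked out, the labelled tissues could not be checked against defining markers, and genes are described below by how their counts behave. No sequence is shown for the same reason. In whole tissue, fewer cells of a type and less RNA per cell cannot be told apart.

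Library totals ran from 9.31 to 13.1 M counts (M, 1e+06) in breast muscle and from 11.6 to 14.3 M in spleen. Every library resembled its own tissue: over the genes tested, the lowest Spearman correlation between 2 libraries of one tissue was 0.885 and the highest between tissues was 0.68. The breast muscle libraries H1, H4 and H8 stood apart from the other muscle libraries in several measures below, H1 the most. H7 stood apart in the share of counts held by the genes far higher in muscle than in spleen. It did not in how concentrated its counts were: its 10 most abundant genes held 27.1%, against 23.8% in L9. Results that rest on the muscle libraries H1, H4, H7 and H8 are given with and without them.

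The counts of breast muscle were concentrated in few genes, and those of spleen were spread over many. In high altitude breast muscle, the number of genes that together held 50% of a library's counts was lowest at 20, had a median of 41 and was highest at 448, in H1. In low altitude breast muscle it ran from 21 over a median of 26 to 86. In spleen it ran from 391 over 598 to 734 at high altitude and from 418 over 529 to 796 at low altitude. All muscle libraries but H1 lay below all spleen libraries, and H1 lay among them. The difference between the tissues had an adjusted p of 9.87e-05 at high altitude and 6.17e-05 at low altitude (two-sided exact permutation tests, n = 9 each, adjusted over 6 tests).

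The 10 most abundant genes of a library held 9.41% to 40.9% of the counts of muscle from high altitude, with a median of 33.2%, and 23.8% to 39.6% in low altitude breast muscle, with a median of 35.2%. In spleen they held 8.7% to 12.9% at high altitude and 8.29% to 12.3% at low altitude. Here too H1 was the only muscle library inside the range of spleen. The adjusted p was 0.000247 at high altitude and 6.17e-05 at low altitude (two-sided exact permutation tests, n = 9 each).

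**Figure D1:**
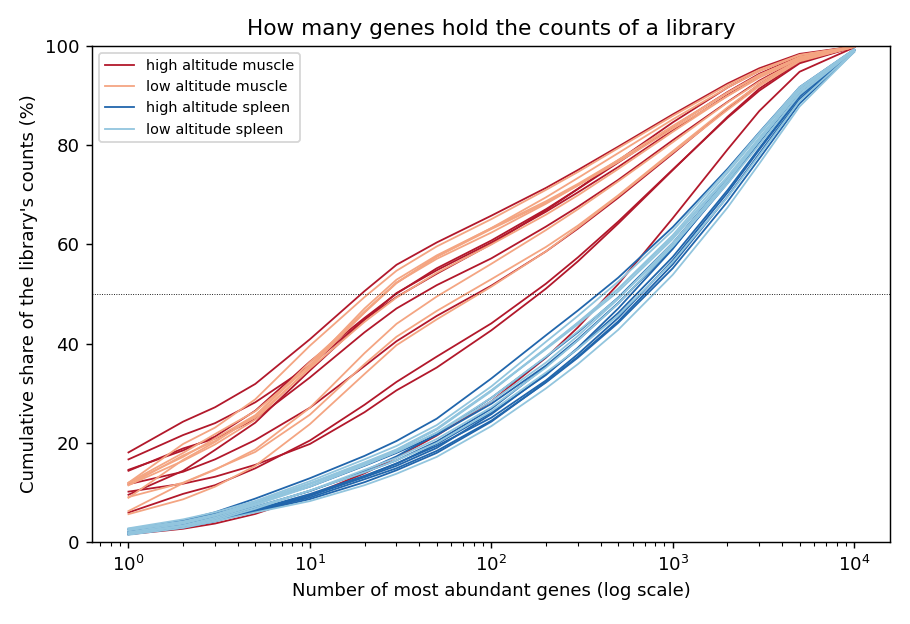
Cumulative share of each library's counts (percent) against the number of its most abundant genes (log scale); each line is 1 of 36 libraries, coloured by tissue and altitude, and the dotted line marks 50%. Muscle lines cross 50% at 20 to 448 genes and spleen lines at 391 to 796; the muscle line closest to spleen is H1.

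Spleen also showed more genes. Of the 24881 identifiers, 16621 to 17734 had at least 1 count in a spleen library and 13398 to 15054 in a muscle library. With every library thinned to the smallest total of the 36, spleen libraries held 16140 to 17177 genes and muscle libraries 12992 to 15054. The groups did not overlap at either altitude, each with an adjusted p of 6.17e-05 (two-sided exact permutation tests, n = 9 each). Thinning makes totals alike but not the counts left beside the 10 most abundant genes. These held up to 40.9% in muscle and up to 12.9% in spleen, and their part in the difference was not tested. Over all 18 libraries of a tissue without thinning, 2474 identifiers had counts in spleen and none in muscle, and 394 had counts in muscle and none in spleen.

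Most genes differed between the tissues. Of 13597 genes that passed the filter on low counts, 11781 (86.6%) had a Benjamini-Hochberg adjusted p under 0.05 in edgeR's quasi-likelihood test with altitude as a covariate. Of all genes tested, 5181 (38.1%) were higher in breast muscle and 6600 (48.5%) higher in spleen. Against a minimum difference of 2-fold in place of no difference, 3328 genes (24.5%) were higher in muscle and 4718 (34.7%) higher in spleen. In 2253 genes (16.6%) all 18 muscle libraries lay above all 18 spleen libraries, and in 3043 genes (22.4%) all spleen libraries lay above all muscle libraries.

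The division into higher and lower rested on how libraries were scaled. Trimmed mean of M-values (TMM) factors, which set the bulk of genes to a common level, were 0.42 to 1.18 in muscle and 1.44 to 1.96 in spleen. The median log2 fold change (muscle over spleen) of all genes tested was -0.31 with these factors, -0.53 with upper-quartile factors and -1.66 with library size alone. With library size alone, 2397 genes were called higher in muscle and 9755 higher in spleen. All 2397 were among the 5181, and all 6600 were among the 9755. Fold changes below are therefore to be read against the median of -0.31.

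The 2 directions differed in the size of their fold changes. Among the genes called higher in muscle, 1415 changed by less than 2-fold, 2613 by 2-fold to 8-fold, 655 by 8-fold to 32-fold, 210 by more up to a log2 fold change of 7, and 288 beyond that. Among those called higher in spleen, 1338 changed by less than 2-fold, 2819 by 2-fold to 8-fold, 1362 by 8-fold to 32-fold, 832 by more up to a log2 fold change of -7, and 249 beyond that. The spleen side thus had about as many small changes as the muscle side and more between 8-fold and a log2 size of 7. The median absolute log2 fold change was 1.66 for genes higher in muscle and 2.2 for genes higher in spleen. These sizes are measured from 0. Measured from the median of -0.31, muscle sizes would be larger and spleen sizes smaller, so the order of these medians may depend on the scaling. The highest log2 fold change was 15.59 and the lowest -12.69.

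A smaller number of genes stood at like levels. Of the 1816 genes not called, 1515 had a log2 fold change whose interval of 2 standard errors (SE) on either side lay within 2-fold. A further 2753 genes were called with a fold change under 2-fold.

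To describe the genes that separate the tissues most, those called, at least 32-fold apart and with a mean of at least 20 scaled CPM (a gene's counts for each 1 M counts of the library) in the higher tissue were taken. There were 379 on the muscle side (2.79% of the genes tested) and 433 on the spleen side (3.18%). With library size alone they numbered 238 and 889. The 379 muscle-side genes had a median absolute log2 fold change of 8.14 and the 433 spleen-side genes one of 6.26. In 362 of the 379 and 427 of the 433 the libraries of the tissues did not overlap, against 16.6% and 22.4% of all genes tested in these directions. Genes chosen on the same libraries as called and 32-fold apart can hardly overlap, so nothing is read from these counts.

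**Figure D2:**
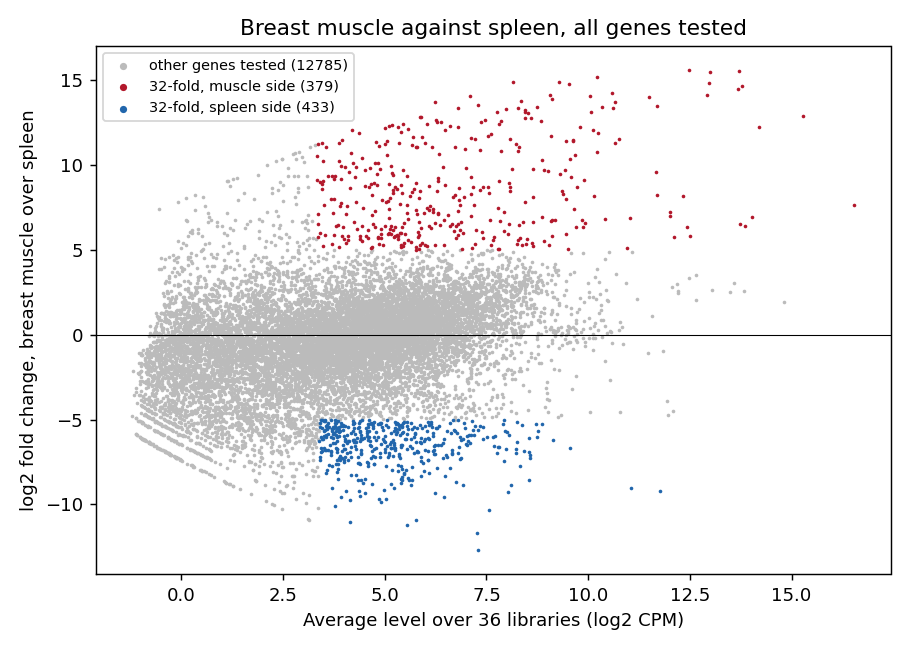
Log2 fold change of breast muscle over spleen against the average level over 36 libraries (log2 CPM); each point is 1 of 13597 genes, red for the 379 muscle-side and blue for the 433 spleen-side genes at least 32-fold apart with at least 20 CPM. Red points reach a log2 fold change of 15.59, while blue points reach -12.69.

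Few of these genes were without counts in the other tissue. Of the 379 muscle-side genes, 229 had at least 1 count in every spleen library, and 3 had 0 counts in all 18. Those 3 had means of 12.6, 16.2 and 22 CPM in muscle without scaling factors (the minimum of 20 applies to scaled CPM), at least 55.0-fold, 70.7-fold and 96.4-fold higher than a floor of 3 counts per spleen library; 1 of them fell to 3 counts in its lowest muscle library. Of the 433 spleen-side genes, 199 had at least 1 count in every muscle library and 0 had no count in all of them.

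The muscle side was far more abundant than the spleen side. Levels in this and the following paragraphs are shares of all counts of a library, or CPM, without scaling factors. The 379 genes held 15.2% of the counts in H1, the lowest high altitude muscle library, with a median of 46.6% and a highest value of 55.2%. In low altitude muscle they held 40.8% to 54.2%, with a median of 47.5%. In spleen the same genes held 0.488% to 0.727%. H1, too, lay above every spleen library, but the genes were chosen on these libraries, so nothing is read from this. The 433 spleen-side genes held 9.67% to 12.4% of the counts in high altitude spleen and 8.87% to 12.0% in low altitude spleen, with medians of 10.7% and 10.5%. In muscle they held 0.0194% to 0.169%, highest in H1.

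The muscle side was also the more uneven in level among its own genes. Of its 379 genes, 45 exceeded 1000 CPM in muscle, and the highest mean was 106000 CPM. Its 10 most abundant genes held 65.1% of the counts of the 379 in the median muscle library, 20.1% in the lowest and 71.3% in the highest. Of the 433 spleen-side genes, 16 exceeded 1000 CPM in spleen, the highest mean was 11100 CPM, and the 10 most abundant held 29.9% of the counts of the 433 in the median library, 13% in the lowest and 39.4% in the highest. The median levels of the 2 sides were close, at 90.2 CPM for the muscle side in muscle and 102 CPM for the spleen side in spleen.

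Levels in heart, which had no part in choosing the genes, divided the muscle side. Heart is striated like skeletal muscle but of another muscle type. Of the 379 genes, 187 (49.3%) had a heart mean of at least 20 CPM, against 31.7% of all genes tested, and 85 (22.4%) were under 1 CPM, against 17.5%. The 379 had to reach 20 scaled CPM in muscle and the genes tested did not, so these shares are not like for like. By the ratio of the muscle to the heart mean, 167 genes were at most 4-fold lower in heart or higher there, 93 were 4-fold to 32-fold lower and 119 at least 32-fold lower. Heart lay within 4-fold of muscle in 41.4% of the 379, against 79% of all genes tested. The 379 were chosen as far above another tissue, which favours a low share. The 167 shared with heart had a median log2 fold change of muscle over spleen of 7.58, the 93 one of 6.74 and the 119 one of 9.72.

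These 3 subsets took up different parts of the muscle libraries. The 167 genes shared with heart held a narrow share of the counts in all 18 muscle libraries, 5.26% to 6.79% at high altitude with a median of 6.04% and 6% to 7.25% at low altitude with a median of 6.16%. In heart they held 4.15% to 6.63% and 3.78% to 7.35%. The 119 genes low in heart held 4.39% to 24.4% of high altitude muscle counts with a median of 19.2%, and 17.2% to 29.6% of low altitude muscle counts with a median of 22.6%. In heart they held at most 0.266%. The 93 genes between them held 4.77% to 26.9% and 13.8% to 20% in muscle, and at most 2.32% in heart. The narrow range of the 167 is one of unscaled shares and does not make these genes steadier after scaling. The median SD of scaled log2 CPM in high altitude muscle was 1.03, 0.92 and 1.17 for the 167, 93 and 119 genes. In low altitude muscle it was 0.55, 0.42 and 0.52.

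The muscle libraries that stood apart had low shares of the genes low in heart, and H1 and H4 of the intermediate genes too. In H1, H4, H7 and H8 the 119 genes held 4.39%, 9.99%, 12.9% and 7.79% of the counts, below each of the other 14 muscle libraries. The 93 intermediate genes held 4.77% in H1 and 12.9% in H4, below every other muscle library. In H7 and H8 they held 17.8% and 15.7%, above the 13.8% of L8. In H1, H4, H7 and H8 the 167 genes shared with heart held 6.05%, 6.79%, 5.89% and 5.26%, and H4 was the highest of the high altitude group and H8 the lowest. These are unscaled shares and do not confine the difference to the genes low in heart. The share of spleen-side genes was 0.169% in H1, with 0.0194% to 0.0654% in the other high altitude muscle libraries; its part in the low muscle-side share of H1 was not tested. The totals of H1 and H8 were the smallest, at 9.31 M each, and those of H4 and H7 were 12.1 M and 12.5 M.

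**Figure D3:**
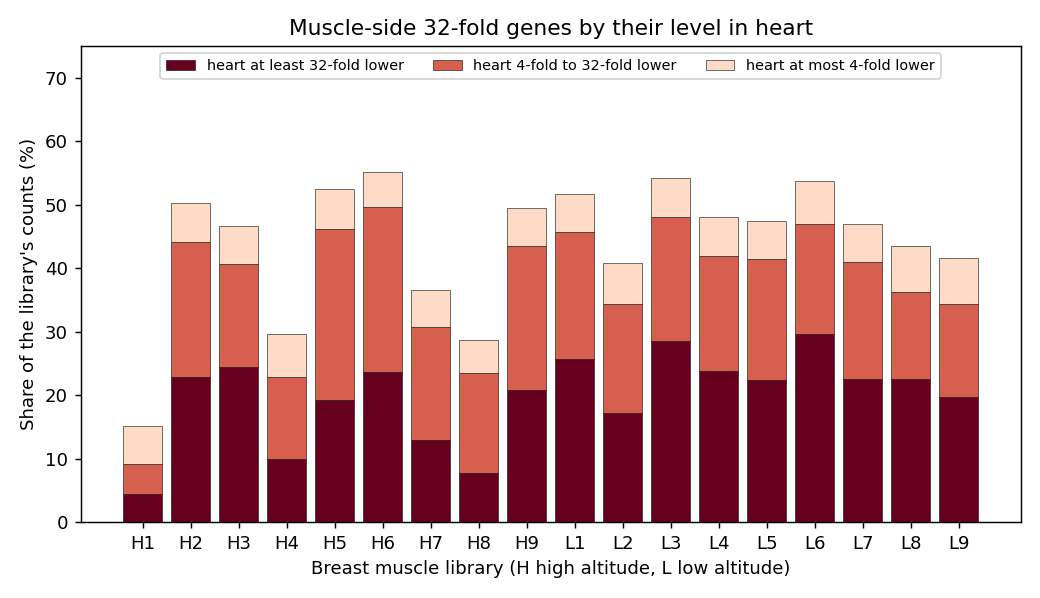
Share of each breast muscle library's counts (percent) held by the 379 muscle-side genes, stacked by their level in heart (dark, 119 genes at least 32-fold lower; middle, 93 genes; light, 167 genes at most 4-fold lower or higher). The light segment stays between 5.26% and 7.25% in all 18 libraries, while the dark one is lowest in H1, at 4.39%.

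Between the altitudes the share of the muscle side in muscle averaged 47.5% ± 4.98 in the low altitude libraries and 40.5% ± 13.6 in the high altitude ones (SD, n = 9 each), and a two-sided exact permutation test gave p = 0.167, or 0.335 adjusted over 2 tests. Without H1, H4, H7 and H8 the difference, low minus high altitude, turned from 7.04 to -3.32 percentage points (exact permutation p = 0.208, n = 9 against 5). These 4 libraries held the lowest shares of the high altitude group, at 15.2%, 29.7%, 36.5% and 28.7%. Leaving them out had to lower the difference, so nothing is concluded from its turn or its p. The share of the spleen side in spleen averaged 10.4% ± 0.92 in the low altitude libraries and 10.6% ± 0.867 in the high altitude ones (SD, n = 9 each), with p = 0.691 by the same exact test.

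The spleen side was more rarely shared with heart. Of its 433 genes, 45 (10.4%) had a heart mean of at least 20 CPM, against 31.7% of all genes tested, and 86 (19.9%) were under 1 CPM, against 17.5%. Here, too, only the 433 had to reach 20 scaled CPM, in spleen. By the ratio of the spleen to the heart mean, 9 were at most 4-fold lower in heart or higher there, 192 were 4-fold to 32-fold lower and 232 at least 32-fold lower. Heart lay within 4-fold of spleen in 1.85% of the 433, against 63.2% of all genes tested. The 433 were chosen as far above another tissue, which favours a low share. Without scaling factors, the 4-fold bar is also not the same for both sides. The spleen side as a whole held 0.264% to 0.825% of the counts in high altitude heart and 0.224% to 0.619% in low altitude heart. Hearts H1, H4, H7 and H8 held 0.825%, 0.787%, 0.654% and 0.69%, and the other high altitude hearts 0.264% to 0.411%. These are also the numbers of the breast muscle libraries that stood apart, and a link was not tested. In muscle the highest share of the spleen side was 0.169%, so every heart library lay above every muscle library. The 433 were chosen as far lower in these muscle libraries, which favours this order, so nothing is read from it.

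Genes of both sides varied more between libraries of their own tissue than the genes of at least 20 scaled CPM in that group did. In low altitude muscle, the median SD of scaled log2 CPM over 9 libraries was 0.5 for muscle-side genes, 0.35 for genes of at least 20 CPM and 0.49 for all genes tested. In high altitude muscle it was 1.07 for muscle-side genes, 0.53 for genes of at least 20 CPM and 0.68 for all. In the 5 high altitude libraries left without H1, H4, H7 and H8, the muscle side and all genes had 0.57 and 0.54. The 4 left out had the lowest muscle-side shares of their group. A fall was therefore favoured by the choice, and nothing is concluded from it. No value for genes of at least 20 CPM was taken in these 5. In spleen the spleen-side genes had a median SD of 0.57 at high and 0.52 at low altitude, against 0.29 for genes of at least 20 CPM and 0.39 for all genes at either. Muscle-side genes had about the same in spleen, 0.53 and 0.52. Spleen-side genes had 0.95 in high altitude and 0.78 in low altitude muscle. In the other tissue the genes of a side are mostly at low counts, where counting error adds to the SD. Whether the spread was particular to a side can therefore not be read from these values, which are descriptions with no test.

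Of the genes named by rule on the muscle side, the most abundant was ENSGALG00000014442. In high altitude muscle it had 11200 CPM in its lowest library, H1, a median of 117000 and a highest value of 181000. In low altitude muscle it ran from 56600 over 115000 to 120000 CPM. In spleen it ran from 1220 over 1400 to 2430 CPM at high altitude and from 1240 over 1460 to 1890 CPM at low altitude. All muscle libraries thus lay above all spleen libraries. Its log2 fold change was 7.63 (SE 0.34; edgeR adjusted p = 1.59e-22). In heart its mean was 4140 CPM.

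ENSGALG00000029606 had the largest change among muscle-side genes of at least 100 CPM that were detected in 9 or more spleen libraries. It had 1070 CPM in its lowest high altitude muscle library, H1, a median of 10800 and a highest value of 24900, and 13700, 16800 and 36400 CPM in low altitude muscle. Spleen libraries had 0 to 14 counts at high altitude (median 1) and 0 to 267 at low altitude (median 0), and the 267 counts, 19.6 CPM, were in L2. Heart libraries were also near 0 apart from H3, with medians of 4 counts at high and 3 at low altitude and 1594 counts in H3. Muscle and spleen did not overlap, and the log2 fold change, 15.52 (SE 1.06; adjusted p = 2.19e-16 with edgeR), was 18.29 without both libraries of L2.

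The most abundant spleen-side gene, ENSGALG00000021139, was uneven between spleens. It ran from 1090 CPM in H4 over a median of 9650 to 26200 in H8, and at low altitude from 908 CPM in L9 over 11400 to 16000. Muscle had 0.763, 4.4 and 17.9 CPM as lowest, median and highest value at high altitude, and 0.266, 5.15 and 26.9 CPM at low altitude. The lowest spleen library still lay far above the highest muscle library. The log2 fold change was -9.19 (SE 0.62; edgeR adjusted p = 1.16e-16). In heart the gene ranged from 0.331 to 202 CPM.

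ENSGALG00000009601 had the largest change on the spleen side under the same conditions, with 312, 481 and 996 CPM as lowest, median and highest value in high altitude spleen and 373, 611 and 1020 CPM in low altitude spleen. Muscle libraries held 0 to 12 counts at high altitude, the 12 in H5, and 0 to 4 at low altitude, with medians of 1 count. Heart libraries held 3 to 13 counts. This gene was the steadier of the 2 in spleen, with an SD of 0.61 and 0.39 scaled log2 CPM at high and low altitude (n = 9 each) against 1.37 and 1.33 for ENSGALG00000021139. Its log2 fold change was -10.3 (SE 0.37; edgeR adjusted p = 3.93e-25).

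**Figure D4:**
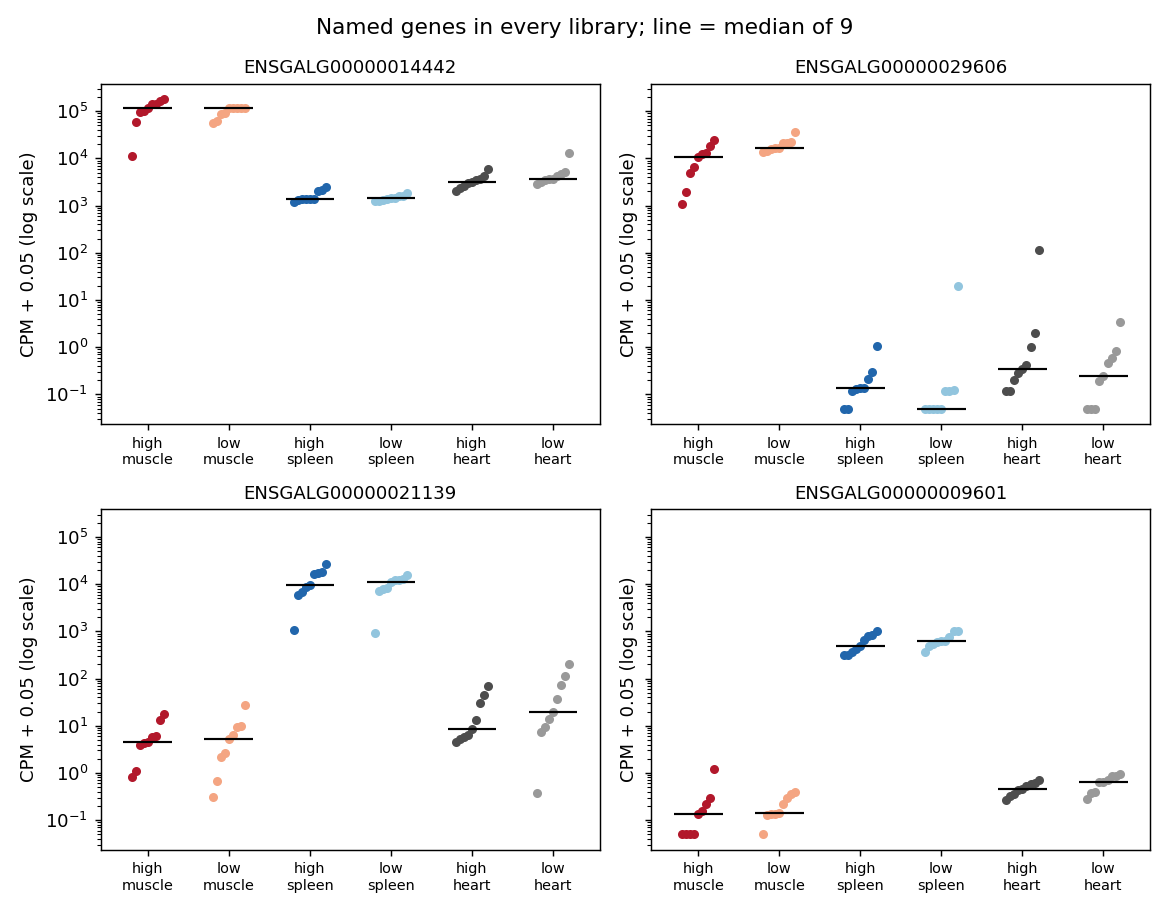
Level of the 4 named genes in each of 54 libraries (CPM + 0.05, log scale), by tissue and altitude; each point is a library and the line is the median of 9. ENSGALG00000014442 and ENSGALG00000029606 are higher in all muscle than in all spleen libraries, and ENSGALG00000021139 and ENSGALG00000009601 the reverse, with 1 low spleen library per altitude for ENSGALG00000021139.

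The tissue difference was then tested within each altitude, in fits that share no library. Among the 18 high altitude libraries 10794 genes (79.4%) were called, 4839 (35.6%) higher in muscle and 5955 (43.8%) higher in spleen. Among the 18 low altitude libraries it was 11335 (83.4%), with 4837 (35.6%) and 6498 (47.8%). Both fits called 10115 genes (74.4%) with one sign, which is 93.7% of the high altitude and 89.2% of the low altitude calls. Across the 13597 genes, which are not independent replicates, the 2 sets of log2 fold changes had a Pearson r of 0.974, and their median absolute difference was 0.34. The median log2 fold change was -0.25 at high and -0.37 at low altitude.

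The genes furthest apart were also described within each altitude. All 379 muscle-side and all 433 spleen-side genes were called in both fits; they were chosen on the same libraries, so this describes them. At least 32-fold differences were found in both altitudes for 359 of the 379 and 398 of the 433. The genes were chosen as 32-fold apart over both altitudes together, so these counts, too, only describe them. Their median log2 fold changes were 8.02 at high and 8.3 at low altitude on the muscle side, and -6.14 and -6.49 on the spleen side. Of the 4 named genes, ENSGALG00000014442 had 7.68 (SE 0.61) at high and 7.58 (SE 0.31) at low altitude, and ENSGALG00000029606 had 17.1 (SE 1.1) and 14.56 (SE 1.6). On the spleen side ENSGALG00000021139 had -9.52 (SE 0.8) and -8.89 (SE 0.87), and ENSGALG00000009601 had -10.09 (SE 0.67) and -10.52 (SE 0.32). None of the 4 passed the edgeR test of the interaction of tissue and altitude, with adjusted p of 0.978, 0.46, 0.815 and 0.899 in that order. The widest gap was that of ENSGALG00000029606, with an interaction of -2.54 (SE 1.39), and its low altitude value includes the 267 counts of the L2 spleen.

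**Figure D5:**
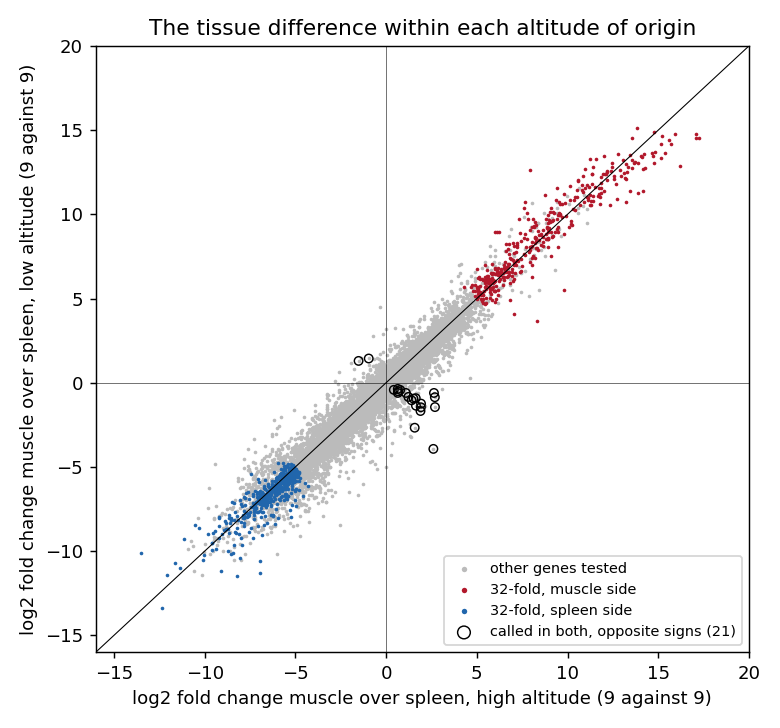
Log2 fold change of breast muscle over spleen at low altitude against that at high altitude; each point is 1 of 13597 genes, red and blue for the 379 muscle-side and 433 spleen-side genes, and circles mark the 21 genes called with opposite signs. Points lie along the diagonal (Pearson r of 0.974 across genes), and the circled genes lie within 3.93 of 0 on both axes.

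In 21 genes (0.154%) both fits made a call with opposite signs. In 19 of them muscle was above spleen at high altitude and below it at low altitude, and in 2 the reverse. Their absolute log2 fold changes lay between 0.36 and 3.93. In 19 of the 21 the altitude difference was larger in muscle than in spleen, with medians of 1.44 and 0.17 scaled log2 CPM. Without H1, H4, H7 and H8 in muscle, 2 genes had such opposite calls, and without H1 alone 9; without both libraries of H3 there were 33. A test against 2-fold left 1.

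Whether the tissue difference itself depended on altitude, which goes with breed and heat label, was tested by an interaction term. With edgeR 0 of 13597 genes (0%) passed, with a smallest adjusted p of 0.0575. At an unadjusted p under 0.05 there were 1701 genes (12.5%), where 679.85 would be 5% of those tested. Of these, 564 (4.15%) had a larger muscle over spleen ratio at low altitude and 1137 (8.36%) at high altitude. Limma-voom called 0 genes and DESeq2 155. Leaving out both libraries of 1 number, edgeR called 166 genes without H3, 49 without H6, 46 without H5, 37 without H9, 32 without H2 and 1 without L2, and 0 in the other 12 fits. Among the high altitude numbers, the fits with 0 calls were those without H1, H4, H7 or H8, and why was not tested. Without H1, H4, H7 and H8 in muscle edgeR again called 0 genes, and the 2 directions were 868 and 750 at an unadjusted p under 0.05.

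On the muscle side 50 of the 379 genes (13.2%) had an unadjusted interaction p under 0.05, 29 with the larger ratio at low altitude and 21 with the smaller. On the spleen side there were 30 of the 433 (6.93%), 6 and 24. The first share is close to the 12.5% of all genes tested and the second lies below it. Spleen-side genes are mostly at low counts in muscle, where an interaction is harder to detect, so nothing is read from the lower share.

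The gene with the smallest interaction p and a larger ratio at high altitude was ENSGALG00000033150. In high altitude muscle it had 5.56 CPM in the lowest library, a median of 43.4 and a highest value of 298 in H1, and in low altitude muscle 2.44, 4.05 and 19.9 CPM. In spleen it had 31.0, 41.2 and 68.9 CPM at high and 35.7, 50.4 and 67.9 CPM at low altitude. The spleens overlapped almost fully, while the muscles differed with some overlap. The log2 fold change of muscle over spleen was 1.65 (SE 0.46) at high and -1.36 (SE 0.30) at low altitude, and the interaction was -3 (SE 0.57; edgeR adjusted p = 0.0575), or -2.08 without H1, H4, H7 and H8 (adjusted p = 0.19). Leaving out 1 number at a time, its adjusted p ran from 0.00807 to 0.164.

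In the other direction it was ENSGALG00000004339, where the altitudes differed in spleen. High altitude spleens had 3.73, 10.2 and 50.5 CPM as lowest, median and highest value, and low altitude spleens 1.26, 4.35 and 7.08. Spleens H1, H4, H7 and H8 had 38.8, 33.2, 50.5 and 20.6 CPM, and the other high altitude spleens 3.73 to 10.2. Muscle had 2.06, 3.67 and 8.61 CPM at high and 1.70, 4.43 and 6.62 CPM at low altitude, so the muscle ranges overlapped almost fully. The log2 fold change of muscle over spleen was -0.96 (SE 0.43) at high and 1.44 (SE 0.28) at low altitude. Its interaction was 2.41 (SE 0.53; edgeR adjusted p = 0.0575, and 0.025 to 0.164 leaving out 1 number at a time). Without the muscle libraries H1, H4, H7 and H8 the interaction was 2.64 (edgeR adjusted p = 0.19). That fit kept the spleens of these numbers, so it does not show their part.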

How the data were processed

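The authors deposited 1 file of whole-number counts per gene for each library, with no normalization visible. HISAT2 2.0.4, featureCounts, FastQC, Cuffdiff, Cufflinks and, as build, galGal4 appear in the submitters' processing notes. Their roles, their order and the strand setting are not given in the sources used here. Overlapping genes and near-identical paralogs are thus uncertain. Per the labels' protocols the kit was TruSeq stranded mRNA.

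Breast muscle was set against spleen in 36 libraries with edgeR 4.0.16 (R 4.3.3; TMM factors, default filter on low counts, robust quasi-likelihood test, altitude as covariate), within each altitude on the same genes, and as an interaction; SE was taken as the absolute log2 fold change over the square root of F. Alternatives used DESeq2 1.42.0, limma-voom (limma 3.58.1), other scalings and filters, thinned counts and left-out libraries. Scaled log2 CPM had a prior count of 2; heart ratios added 0.1 CPM. The fits were also run on simulated counts with planted changes, and no result here rests on that run.

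Named identifiers were, per side, the most abundant gene at least 32-fold apart and that with the largest change at 100 CPM or more and detected in at least 9 libraries of the other tissue; and, per direction, the smallest interaction p at an average log2 CPM of at least 1. The division by heart level, the opposite-sign genes and the removal of H1 alone were chosen after values were seen. So was the removal of H1, H4, H7 and H8 from the comparison of muscle-side shares between altitudes. Members and lists were chosen with earlier results of these data known. The lists of marker genes prepared by symbol could not be used. Floors cover counting error only. Intervals rest on the SE from the quasi-likelihood test, which includes the spread between libraries.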

Additional observations from a re-analysis of the deposited data

Results flagged for a closer look

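Values of 9 libraries per group were searched for a single library far from the rest in 48 sets. In 9 sets the outermost library was further from its neighbour, relative to the whole range of the group, than Dixon's critical value allows. Chance gives about 2.4 such sets. Gaps below are fractions of that range.

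In high altitude breast muscle, H1 needed 448 genes for 50% of its counts (next 184; gap 0.617), held 0.169% of its counts in spleen-side genes (next 0.0654%; gap 0.693) and had the lowest level of ENSGALG00000014442, 13.22 scaled log2 CPM (next 16.17; gap 0.538). H5 had the highest level of the spleen-side gene ENSGALG00000009601, 1.4 scaled log2 CPM (next -0.8; gap 0.518).

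In high altitude spleen, H3 was highest in the muscle-side gene ENSGALG00000029606 at -0.25 scaled log2 CPM (next -1.85; gap 0.615), and H4 was lowest in ENSGALG00000021139 at 9.48 (next 11.74; gap 0.499). In low altitude spleen, L2 was highest in ENSGALG00000029606 at 3.71 (next -2.42; gap 0.934), L9 was lowest in ENSGALG00000021139 at 8.86 (next 12.29; gap 0.773), and the 10 most abundant genes of L9 held 8.29% of its counts (next 10.4%; gap 0.526). The share of all muscle-side genes in L2 spleen, 0.553%, lay within the 0.51% to 0.655% of its group.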

How the results depend on the processing

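Of the results on calls, those within each altitude (7589 to 12757 at high and 7781 to 13361 at low altitude over 13 settings), those with one sign in both (6921 to 11451) and those higher in spleen (4718 to 9755) stayed within 1.5 times. Genes higher in muscle numbered 2397 with library size alone and 3328 in the test against 2-fold, where the bar is higher by construction. The genes at least 32-fold apart numbered 238 on the muscle and 889 on the spleen side with library size alone, 828 and 911 at an 8-fold minimum, 238 and 119 at a minimum log2 size of 7, and 229 and 139 at 100 CPM; at 5 CPM the spleen side had 710. The interaction called 23 genes with library size alone and 155 with DESeq2, and 0 in the other 10 settings tried. Leaving out each number in turn gave 0 to 166 interaction calls. The cause was not tested. In those 18 fits the genes higher in muscle numbered 5151 to 5186, those higher in spleen 6582 to 6677, calls at high altitude 10534 to 10869, at low altitude 11151 to 11409, with one sign in both 9943 to 10174, and the 32-fold genes 373 to 386 and 414 to 437; opposite calls numbered 9 without H1 and 33 without H3. ENSGALG00000033150 passed the interaction test with library size alone (adjusted p = 0.0491) and DESeq2 (0.000846), ENSGALG00000004339 with DESeq2 (0.00428); over the 12 settings adjusted p ran to 0.213 and 0.275. The muscle-side share difference between altitudes turned to -3.32 percentage points without H1, H4, H7 and H8. These were the high altitude libraries lowest in that share, so a fall was fixed by the choice.

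Muscle and spleen libraries of one number shared deviations weakly (r from -0.02 to 0.25, over 0.1 in 11 of 18 pairs). Yet 10 of 18 muscle libraries correlated best with their own number, more than unrelated numbering would give with 9 numbers per altitude. Whether a number is one bird was not settled. The main fit left the numbers unpaired because the labels do not say that a number is one bird. With the number as a replicate block, 5058 genes were higher in muscle and 6782 in spleen, the interaction called 0, and 9 genes had opposite calls.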
